A study of Mus musculus with 59 samples.

Results

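The imprinted Dlk1-Dio3 locus of mouse chromosome 12 was followed across all 35 RNA libraries and 24 chromatin immunoprecipitation (ChIP) libraries of a study of the microRNA-processing proteins DGCR8, Drosha and Dicer and of METTL3 in mouse embryonic stem cells. The locus was chosen by name: its members are 6 of the 39017 genes in the RNA count tables (Dlk1, Meg3, Rtl1, Rian, Mirg and Dio3), and 167 of the 526765 windows of 5 kb in the ChIP count tables, which run from Dlk1 to Dio3. In all, 74 genes of the RNA tables lie in this stretch, most of them single microRNA or small nucleolar RNA (snoRNA) genes. In the mm10 build, Dlk1 (ENSMUSG00000040856) lies at chr12:109452485-109463336, Meg3 (ENSMUSG00000021268) at chr12:109540996-109571729, Rtl1 (ENSMUSG00000085925) at chr12:109564900-109604418 on the minus strand, Rian (ENSMUSG00000097451) at chr12:109603945-109661716, Mirg (ENSMUSG00000097391) at chr12:109734981-109749458 and Dio3 (ENSMUSG00000075707) at chr12:110279230-110281097.

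The locus is expressed by parental origin. Dlk1, a membrane protein related to Notch ligands, Rtl1, a coding gene derived from a retrotransposon, and Dio3, a deiodinase that inactivates thyroid hormone, are made from the paternal chromosome. Meg3, Rian and Mirg are long noncoding RNAs made from the maternal chromosome: Rian carries C/D box snoRNAs, Mirg hosts a large microRNA cluster, and a further group of microRNAs is read antisense to Rtl1. A differentially methylated region upstream of Meg3 controls the domain. The maternal transcripts are known to be silent in some cultured mouse stem cell lines, and Meg3 is read widely as a mark of that state. Drosha and DGCR8 form the nuclear complex that cuts microRNA hairpins out of their host transcripts, Dicer makes the later cut, and METTL3 writes N6-methyladenosine on RNA.

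All cells were embryonic stem cells of a 129xC57Bl6 hybrid background, grown on gelatin in serum with LIF. One RNA set held 23 libraries of 2 floxed lines, DGCR8 Flox/Flox with Rosa26:CRE and Drosha Flox/Flox, for which the labels name no Cre, either untreated or given 0.5 µM 4-hydroxytamoxifen (4OHT) for 24, 48 or 96 h. Each of these groups held 2 libraries except the Drosha line at 96 h of 4OHT, which held 1. The second RNA set held 12 libraries of cells with Rosa26:BirA and DGCR8 FLAG/Avi: 2 parental cultures and 4 METTL3KO lines (1d1, 3xU, 1d2 and 2c4d), each once at 37 °C and once after 1 h at 42 °C. ChIP covered FLAG/Avi-tagged DGCR8, Drosha and Dicer in BirA cells, METTL3 FLAG/Avi in clones 1 and 2 and in cultures H4 and H5 with and without heat, DGCR8 with and without heat and in a Mettl3 knockout, and inputs. The labels do not say whether H4 and H5 are clones 1 and 2, or whether replicates were separate cultures, so p-values measure the spread between these libraries only.

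The Drosha line differed at the microRNA genes of the locus, so mature sequences of hairpins with large differences or many counts are printed first, from RefSeq (GRCm38.p6), with the seed (bases 2 to 8) in capitals. Mir127 (chr12:109592846-109592915), Mir433 (chr12:109591715-109591838), Mir431 (chr12:109590447-109590537) and Mir434 (chr12:109594506-109594599) lie within Rtl1 on the opposite strand. Mir679 (chr12:109715577-109715650), Mir134 (chr12:109734139-109734209), Mir485 (chr12:109734902-109734974), Mir382 (chr12:109733771-109733846) and Mir410 (chr12:109743715-109743795) lie in Mirg or upstream of it.
miR-127-3p: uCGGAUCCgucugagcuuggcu
miR-127-5p: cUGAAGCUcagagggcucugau
miR-433-3p: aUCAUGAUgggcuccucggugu
miR-431-5p: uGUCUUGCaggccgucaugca
miR-434-3p: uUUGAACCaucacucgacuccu
miR-679-5p: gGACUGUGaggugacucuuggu
miR-134-5p: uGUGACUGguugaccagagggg
miR-485-3p: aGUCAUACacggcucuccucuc
miR-382-5p: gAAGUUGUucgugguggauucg
miR-410-3p: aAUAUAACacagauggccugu

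The RefSeq table placed 58 hairpins between Dlk1 and Dio3, 54 on the plus strand and 4 on the minus strand, and 51 of them had a row in the RNA tables. They give 108 mature names with 99 distinct seeds, so the locus encodes many different seeds, most of them held by a single name. Each of the 9 shared seeds joined a pair of names. The arms of miR-379 show such sharing, since its 5p arm has the seed of miR-1193-5p and its 3p arm has the seed of miR-411-3p.
miR-379-5p: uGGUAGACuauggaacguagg
miR-379-3p: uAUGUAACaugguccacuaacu
miR-411-3p: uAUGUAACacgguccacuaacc

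The Meg3 promoter is shown because Meg3, Rian and Mirg were on or off together between cell lines. The printed RefSeq window is chr12:109540746-109541045 (GRCm38.p6, plus strand, 250 bases before to 50 after the start). It held 13 CpG dinucleotides (percentile 62.1), against a median of 7 over 32851 promoters of the same length. The window of a further Meg3 start in RefSeq, chr12:109545148-109545447, held 1 CpG and neither of the motifs named below, and is not printed. Capitals mark the cyclic AMP response element TGACGTCA at base -57 and the letters of the ZFP57 motif TGCCGC, found on the reverse strand, at base -190 from the start. Both strands were searched and the matches do not overlap. Of all promoters, 1.79% held the first motif and 11.6% the second, and a match of letters is not evidence of binding.
Meg3 promoter: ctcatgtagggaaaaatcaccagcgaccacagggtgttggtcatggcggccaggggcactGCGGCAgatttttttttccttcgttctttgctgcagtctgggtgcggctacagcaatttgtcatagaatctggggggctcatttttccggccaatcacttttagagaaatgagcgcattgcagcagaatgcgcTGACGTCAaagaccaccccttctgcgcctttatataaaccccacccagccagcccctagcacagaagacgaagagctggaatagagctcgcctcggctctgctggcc

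The libraries held 9578093 to 12611084 counts in the floxed RNA set, 7102867 to 13579892 in the heat RNA set and 13775668 to 86256100 in the ChIP sets. All 10 embryonic stem cell markers reached 1 CPM (counts scaled to a common library total) in every RNA library. The titles and the source names of some Drosha-line libraries disagree on treatment, and titles were followed: Drosha lay at 87.9 to 134 CPM in the 6 libraries titled control and at 20.9 to 32.2 CPM in the 5 titled 4OHT. In the DGCR8 line the whole-gene Dgcr8 count rose with 4OHT, from 103 to 142 CPM to 166 to 295 CPM, and since the labels do not name the deleted exon this count does not check the deletion. Dgcr8 rose with 4OHT in the Drosha line too, from 83.2 to 124 CPM to 257 to 402 CPM. Mettl3 lay at 54.7 to 70.9 CPM in the parental libraries and at 20.5 to 44.6 CPM in the knockout libraries. The DGCR8-line replicates at 96 h of 4OHT differed more than other floxed replicate pairs (chi-squared per gene of 126 against 4.16 to 14.7). Replicate 1 of that pair had 27.1% of its counts on the mitochondrial ribosomal RNA mt-Rnr2 and replicate 2 had 9.55%. The part of this in the 96 h values of the DGCR8 line was not tested.

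Meg3, Rian and Mirg separated the 2 floxed lines almost completely. Values below are CPM after TMM scaling (edgeR), unless a sentence names counts or RPKM, CPM divided by exon length in kb. In untreated Drosha-line cells Rian lay between 360 and 447 CPM (median 369, n = 6), Meg3 between 77.2 and 264 CPM (median 107) and Mirg between 32.9 and 62.6 CPM (median 41.0). In the untreated DGCR8 line the medians were 0.865 CPM for Rian, 0.0949 CPM for Meg3 and 0 CPM for Mirg. No library of one line overlapped one of the other for these 3 genes, in either treatment. Across all 12 DGCR8-line libraries the raw counts were 0 to 4 for Meg3, 0 to 4 for Mirg and 1 to 15 for Rian, whereas every Drosha-line library held at least 905 counts of Meg3 and 420 of Mirg.

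Per exon length, Rian was the most abundant member of the untreated Drosha line, with a median of 25.7 RPKM. Meg3 (5.94 RPKM) and Mirg (5.63 RPKM) followed and overlapped each other, with ranges of 4.27 to 14.6 and 4.51 to 8.59 RPKM. The 3 coding genes were far lower and overlapped one another, at medians of 0.335 RPKM for Dlk1, 0.288 RPKM for Dio3 and 0.260 RPKM for Rtl1. The noncoding maternal RNAs thus stood above the coding paternal genes in every untreated Drosha-line library.

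**Figure D1:**
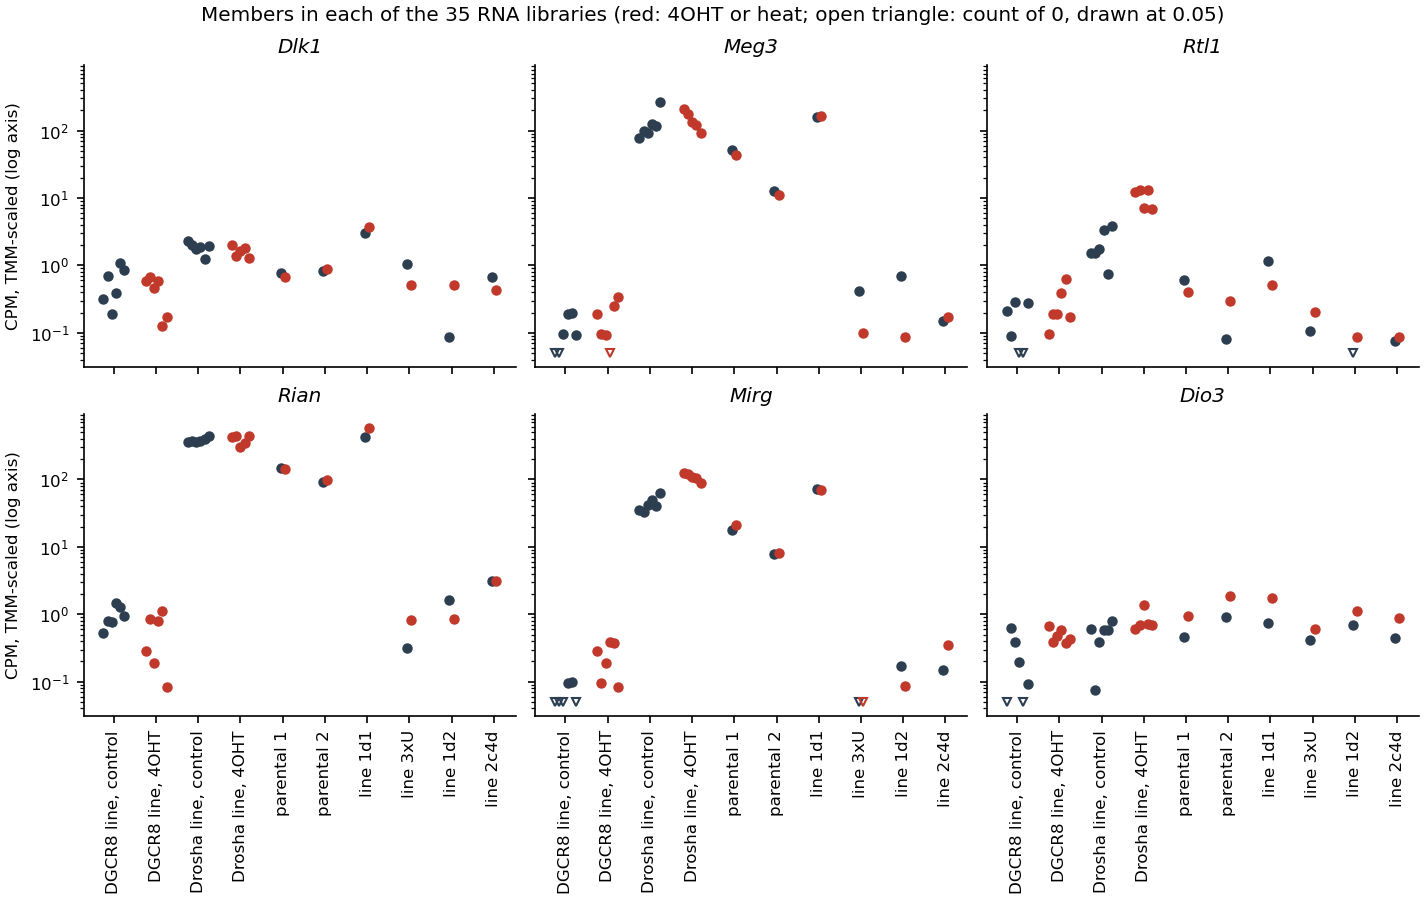
Each panel plots 1 member, with CPM after TMM scaling on a log axis for all 35 RNA libraries, grouped by cell line and coloured by treatment (4OHT or heat in red); open triangles mark a count of 0. Meg3, Rian and Mirg are high in the Drosha line (Meg3 77.2 to 264 CPM in control libraries), the parental cultures and line 1d1, and near 0 in the DGCR8 line and in lines 3xU, 1d2 and 2c4d.

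The test of the untreated lines called 5 of the 6 members lower in the DGCR8 line, with 48.7% of all 16606 genes called (edgeR quasi-likelihood F test, Benjamini-Hochberg adjusted p under 0.05). Rtl1 was lower by a log2 difference of -3.74 ± 0.57 (SE, adjusted p 3.39e-05 by edgeR), and Dlk1 by -1.78 ± 0.24 (adjusted p 9.73e-06 by edgeR). Dio3 differed by -1.41 ± 0.61 and did not pass (adjusted p 0.0649 by edgeR), but passed without the filter on low counts (0.0438). For the near-absent noncoding RNAs the ratio of pooled counts is easier to read than a fitted fold. Scaled for depth, control libraries of the Drosha line held 1429 times as much Meg3 (9101 against 6 counts, exact 95% interval 656.5 to 3896), 431.5 times as much Rian (27473 against 60 counts, 335.1 to 565.6) and 1460 times as much Mirg (3099 against 2 counts, 403.9 to 1.206e+04). These intervals cover counting error only.

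Other genes of the locus went with them. The 13 snoRNA genes of the locus summed to 14.8 to 23.6 CPM in untreated Drosha-line libraries and to 0 counts in untreated DGCR8-line libraries. The snoRNA gene AF357425 was lower by -9.51, DQ267102 by -8.85 and DQ267100 by -7.46 (log2), and the microRNA genes Mir433 by -6.39, Mir3070a by -5.91 and Mir127 by -3.95, all called by edgeR. These microRNA genes lie within the Rtl1 span, and the strand used in counting is not given, so their reads may include coding Rtl1. A fitted log2 value of a gene near 0 counts depends on the prior count and is given only as an order of size.

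Much else differed between the untreated floxed lines, with 48.7% of all genes called. Of 40 tested imprinted genes outside the locus, 30 were called, 6 higher and 24 lower in the DGCR8 line, with a median log2 difference of -0.41 against -0.01 over all genes. Among them Peg10, a retrotransposon-derived imprinted gene, was lower by -1.54 and Igf2, a growth factor, by -3.28. Of 21 imprint-maintenance and DNA methylation genes 6 were higher and 9 lower, including Dppa3, which protects methylation in the early embryo (-3.09), and Dnmt3l, a cofactor of the de novo methyltransferases (-1.22). Of 9 tested genes flanking the locus 5 were higher and 1 lower.

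Marker levels of other cell types also differed between the lines, in the same test that called 48.7% of all genes. Fibroblast markers summed to 783.2 to 1020 CPM in untreated DGCR8-line libraries and to 1044 to 1690 CPM in untreated Drosha-line libraries, and 6 of 7 tested were lower in the DGCR8 line. Trophoblast markers summed to 58.22 to 103.3 against 289.3 to 393.4 CPM (6 of 6 lower), and mesoderm markers to 2.934 to 6.605 against 18.86 to 35.76 CPM (4 of 4 lower). Embryonic stem cell markers summed to 4468 to 5021 against 3158 to 3659 CPM (8 of 10 higher, 1 lower). The part of these markers in the locus difference was not tested, and in bulk RNA fewer cells expressing a gene and less RNA per cell cannot be told apart.

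In the Drosha line, Mirg rose with 4OHT at all 3 times. Its 24 h values were 35.8 and 32.9 CPM in control and 123 and 119 CPM in treated libraries, its 48 h values 42.0 and 48.8 against 108 and 106 CPM, and its 96 h values 40.1 and 62.6 against 89.6 CPM. All 5 treated libraries lay above all 6 controls. The log2 changes were 1.82 ± 0.16 at 24 h, 1.24 ± 0.16 at 48 h and 0.80 ± 0.19 at 96 h (SE; adjusted p 4.78e-05, 0.00102 and 0.00714 by edgeR). The 96 h treated group is 1 library, so every 96 h test of this line takes its spread from the groups with 2 libraries. That library also had 21.3% of its counts on the mitochondrial ribosomal RNA mt-Rnr2, against 10.3 to 13.7% in the other Drosha-line libraries, and the part of this in the 96 h values was not tested. Mirg is the host transcript of the cluster, and the gene count does not separate spliced from unspliced host RNA.

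Rtl1 counts rose at 24 and 48 h. Controls held 1.54 and 1.53 CPM at 24 h, 1.77 and 3.36 CPM at 48 h, and 0.739 and 3.83 CPM at 96 h. Treated libraries held 12.4 and 13.3, then 7.17 and 13.0, then 6.86 CPM. Every treated library was above every control, by log2 changes of 3.06 ± 0.46 at 24 h, 1.99 ± 0.44 at 48 h and 1.60 ± 0.56 at 96 h (adjusted p 0.00812, 0.0249 and 0.05003 by edgeR; the last lies just above the threshold, and passed with RLE scaling (0.0483), without the filter on low counts (6.57e-06) and with the 96 h groups alone (0.000724), but not with DESeq2 (0.206)). The counts are low (18 and 20 against 166 and 133 reads at 24 h), and the 24 h call was lost without control replicate 1 (adjusted p 0.244), control replicate 2 (0.213) or treated replicate 2 (0.0583), all by edgeR. At 48 h it was lost without control replicate 1 (0.318), control replicate 2 (0.0675) or treated replicate 2 (0.0703), and with DESeq2 (0.191). Without control replicate 2 of 96 h, the 96 h change was 3.20 and passed (adjusted p 0.00293 by edgeR). The strand used in counting is not given in the sources used here, so reads of coding Rtl1 and of the antisense microRNA transcript cannot be told apart.

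Meg3 differed from its controls in opposite directions at 24 h and 96 h. Its values at 24 h were 77.2 and 98.1 CPM in controls and 207 and 178 CPM with 4OHT, a log2 difference of 1.14 ± 0.26 that did not pass (adjusted p 0.153 by edgeR) but passed when only the 24 h groups entered the fit (3.19e-06) or without the filter on low counts (5.97e-21). Both of these settings also called many more genes in all at 24 h than the 30 called as reported. At 48 h it held 92.5 and 124 against 136 and 119 CPM, and the groups overlapped (0.24 ± 0.26, adjusted p 0.700 by edgeR). At 96 h it held 117 and 264 CPM in controls and 92.6 CPM in the treated library, a fall of -1.04 ± 0.34 (adjusted p 0.0364 by edgeR). That fall rests on control replicate 2: without it the difference was -0.33 (adjusted p 0.286 by edgeR), and DESeq2 did not call it (0.109). The same control library was the highest control for Meg3, Rtl1, Mirg, Rian and Dio3.

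Rian, the most abundant member per length, had no call at any time, except at 24 h when only the 24 h groups entered the fit (0.24, adjusted p 0.0496 by edgeR). It lay at 361 and 371 against 422 and 437 CPM at 24 h, at 360 and 367 against 301 and 352 CPM at 48 h, and at 398 and 447 against 439 CPM at 96 h. The log2 differences of 0.24 ± 0.10, -0.16 ± 0.10 and 0.05 ± 0.12 did not pass (adjusted p 0.403, 0.441 and 0.792 by edgeR), and their 95% intervals lay within -0.35 and 0.43. Dlk1 stayed between 1.23 and 2.30 CPM and Dio3 between 0.0764 and 1.36 CPM over all 11 libraries, with no call at any time. Their treated and control groups overlapped at each time, except for Dio3 at 48 h (0.385 and 0.593 CPM in controls against 1.36 and 0.716 CPM). Per length the order of the noncoding RNAs in treated libraries was Rian (median 29.3 RPKM), Mirg (14.9 RPKM) and Meg3 (7.53 RPKM), with Rtl1 at 1.94 RPKM.

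**Figure D2:**
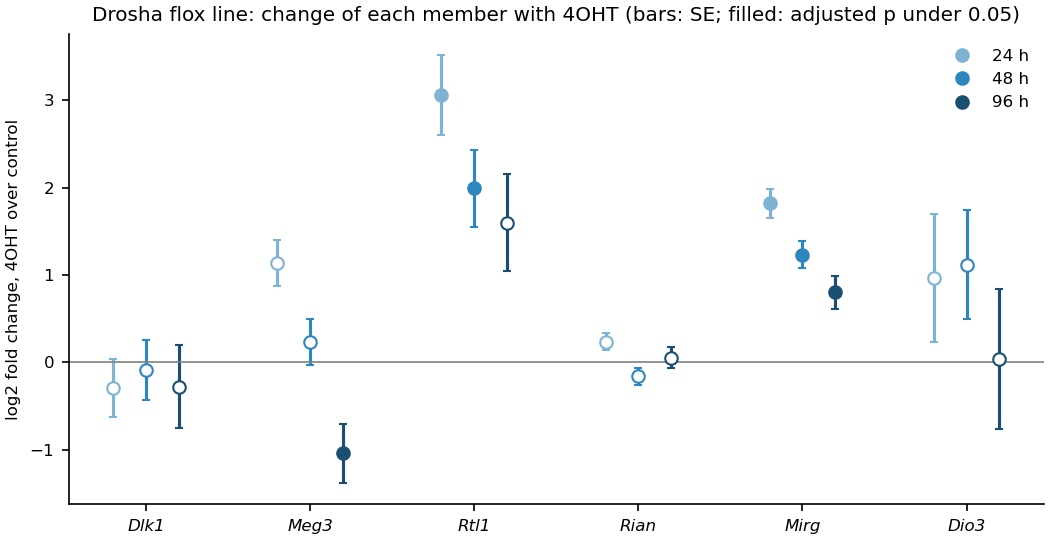
Points are log2 changes of the 6 members with 4OHT in the Drosha line at 24, 48 and 96 h, bars are standard errors from edgeR, and filled points passed an adjusted p of 0.05. Mirg passed at all 3 times, Rtl1 at 24 and 48 h and Meg3, with a negative sign, at 96 h.

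By count, 2 of the 6 members were called at 24 h (both higher, 0.184% of all genes called), 2 at 48 h (both higher, 2.82%) and 2 at 96 h (1 higher and 1 lower, 23.7%). The members' median log2 change was 1.05 at 24 h, 0.68 at 48 h and 0.05 at 96 h. The 24 h share stands against a small background, whereas the 96 h share does not differ much from the share of all genes. The change itself differed between 96 h and 24 h for 2 of 6 members (11.6% of all genes called): Meg3 by -2.18 ± 0.43 (adjusted p 0.00724 by edgeR; -1.47 without control replicate 2 of 96 h) and Mirg by -1.02 ± 0.25 (adjusted p 0.0211 by edgeR). Both rest on the single treated library of 96 h, with the spread taken from the groups with 2 libraries. The call for Mirg was lost without any 1 of the 24 h libraries, at adjusted p between 0.0521 and 0.0775 by edgeR.

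The other lists are given for comparison. At 24 h, when 0.184% of all genes were called, 0 of 40 imprinted genes outside the locus passed by edgeR. The same held for 0 of 21 imprint-maintenance genes and 0 of 8 flanking genes. At an unadjusted p under 0.05 these lists held 2, 1 and 1 genes, and DESeq2 called none of them. Of 6 tested microRNA host transcripts elsewhere, 2 rose. At 96 h 23.7% of all genes were called, and the list counts at that time are to be read beside this share. Of the 40 imprinted genes 10 had risen and 2 had fallen, with Plagl1, an imprinted transcription factor, at 1.60 and Trappc9 at -1.03. Of the maintenance genes 1 rose and 7 fell, including the de novo methyltransferases Dnmt3b (-1.09) and Dnmt3a (-0.69). The host transcripts Mir22hg (2.87), Mir17hg (2.18) and Mir124a-1hg (1.2) rose at 96 h.

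The hairpin rows of the RNA tables show where within the locus the reads gathered. All 51 hairpins together had 521 counts in the 6 control libraries of the Drosha line, 1175 counts in the 5 treated libraries and 9 counts in the 12 libraries of the DGCR8 line. Per library their sum was 4.37 to 13.5 CPM in controls (median 7.10) and 16.5 to 27.0 CPM with 4OHT (median 18.9), without overlap. The 13 hairpins in and beside Rtl1 summed to 2.82 to 8.25 CPM in controls and to 10.9 to 16.7 CPM with 4OHT, and the 32 of the Mirg cluster to 1.27 to 3.89 against 4.81 to 8.58 CPM, again without overlap and with no test of these sums. The 3 hairpins within Rian overlapped between groups (0.273 to 1.11 against 0.344 to 1.57 CPM), as did the snoRNA genes (14.8 to 23.6 against 11.3 to 19.3 CPM). These libraries hold long RNA after ribosomal RNA depletion, so such reads mark longer RNA over the hairpin and not mature microRNA. Since the strand used in counting is not given, reads on hairpin rows within Rtl1 cannot be assigned to coding Rtl1 or to the antisense microRNA transcript.

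Of the 50 hairpins with a count in the Drosha line, 40 were higher in CPM in the pooled treated libraries and 10 lower, against 50.8% higher among all genes with 1 to 384 counts there. The groups did not overlap for 10 of the 50, all higher with 4OHT, against 0.931% of those genes in either direction. Many of the 50 had fewer than 10 counts, for which a direction means little. Mir127 had the largest difference in pooled CPM, with 1 to 4 counts in each control library and 24 to 56 in each treated one. Its pooled counts of 12 and 184 give an 18.2-fold ratio (exact 95% interval 10.2 to 36.0), and it was called at every time, at log2 4.18 ± 0.53, 4.65 ± 0.55 and 3.43 ± 0.63 (adjusted p 0.00213, 0.000594 and 0.00156 by edgeR). Its neighbours within Rtl1 varied widely. Mir434 had 0 counts in all controls and 2 to 7 in each treated library, at least 9.12-fold higher against a floor of 3 counts over the group, and Mir431 had 2 against 23 pooled counts (13.7-fold, 3.38 to 120). Mir433, with the most counts, had a smaller ratio, with 145 against 239 pooled counts (1.96-fold, 1.59 to 2.43), and passed at no time.

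Ratios in the Mirg cluster varied as well. Mir485 had 3 and 26 pooled counts (10.3-fold, 3.16 to 53.2), Mir679 had 9 and 47 (6.21-fold, 3.01 to 14.4), Mir134 had 12 and 43 (4.26-fold, 2.21 to 8.88) and Mir382 had 6 and 18 (3.57-fold, 1.36 to 11.0). Mir410 had 23 and 54 (2.79-fold, 1.69 to 4.77). Mir3070a, in the Rtl1 stretch, had 53 and 146 counts (3.28-fold, 2.38 to 4.58) and was called at 96 h (log2 1.87 ± 0.56, adjusted p 0.0246 by edgeR). Mir3071 (46 and 51 counts, 1.32-fold, 0.868 to 2.01) and Mir1188, within Rian (36 and 34 counts, 1.12-fold, 0.682 to 1.85), had intervals that include 1, and the 10 lower hairpins, such as Mir770 within Meg3 (7 and 1), Mir882 (8 and 5) and Mir1197 (8 and 6), had at most 8 counts in either group. Ratios pool the 3 times and libraries, and their intervals cover counting error only.

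**Figure D3:**
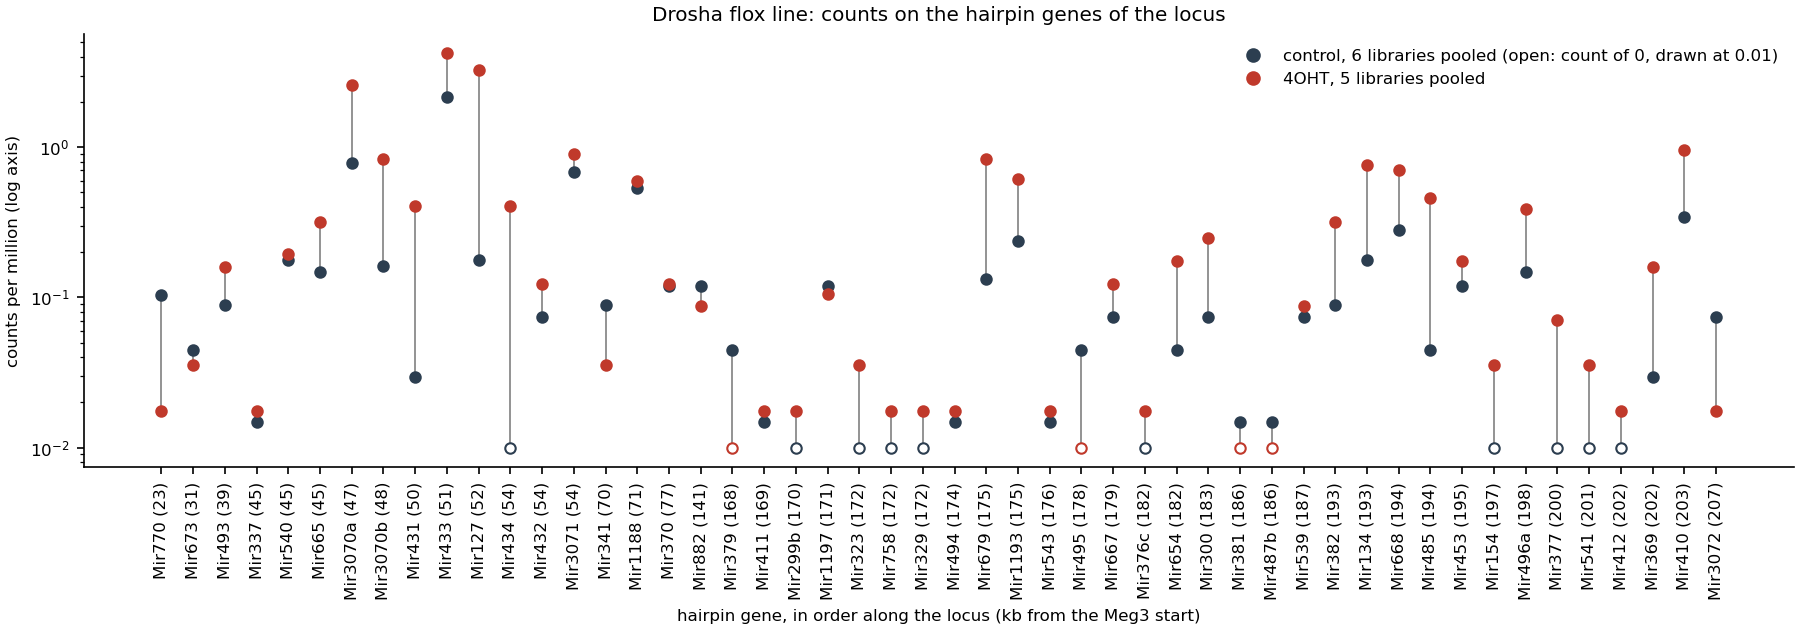
Each line is 1 of the 50 hairpins with a count in the Drosha line, and the points give pooled CPM in the 6 control and the 5 4OHT libraries on a log axis, with open points for a count of 0. The treated point is the higher one for 40 of the 50, and Mir127 (12 against 184 counts) has the largest difference in CPM.

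In the DGCR8 line the locus stayed near silence in the libraries labelled 4OHT. Rian was the only member that passed the filter on low counts there, and it did not pass: its log2 differences were -0.20 ± 0.90 at 24 h, -1.17 ± 0.86 at 48 h and -1.03 ± 0.86 at 96 h (adjusted p 1.00, 0.600 and 0.478 by edgeR; unadjusted p under 0.05 at 0 of the 3 times, and no call by DESeq2, which gave an adjusted p at 24 h only). Of all genes, 0.107%, 1.48% and 13.5% were called at these times. Mirg had a median of 0 CPM in controls and 0.239 CPM (0.0845 to 0.392) with 4OHT, a few reads per library, so no fold is given. The 6 members were then tested for a different 4OHT response between the lines, and none passed at 24 h (lowest adjusted p 1.00, 0.00602% of genes called), 48 h (0.975, 0.00602%) or 96 h (0.251, 0.181%), all by edgeR. At an unadjusted p under 0.05 the counts were 0, 0 and 1 (Dlk1), and DESeq2 called 0 at each time. These intervals were wide: for Mirg at 24 h the difference between responses was 2.35 with a 95% interval of -0.94 to 5.64, since 1 line has almost no reads. Elsewhere the host transcripts Mir17hg (1.82), Mir22hg (1.65) and Mir124a-1hg (1.28) rose in the DGCR8 line at 96 h.

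The same 3 noncoding RNAs separated the lines of the heat set. In the 2 parental cultures at 37 °C Rian lay at 150 and 92.5 CPM, Meg3 at 52.1 and 12.6 CPM and Mirg at 17.8 and 7.72 CPM. In knockout line 1d1 they lay at 433, 159 and 72.5 CPM, above both parental cultures. In lines 3xU, 1d2 and 2c4d the raw counts at 37 °C were 4, 8 and 2 for Meg3, 3, 19 and 41 for Rian, and 0, 2 and 2 for Mirg. Thus 1 knockout line stood above the parental cultures and the other 3 stood near 0.

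**Figure D4:**
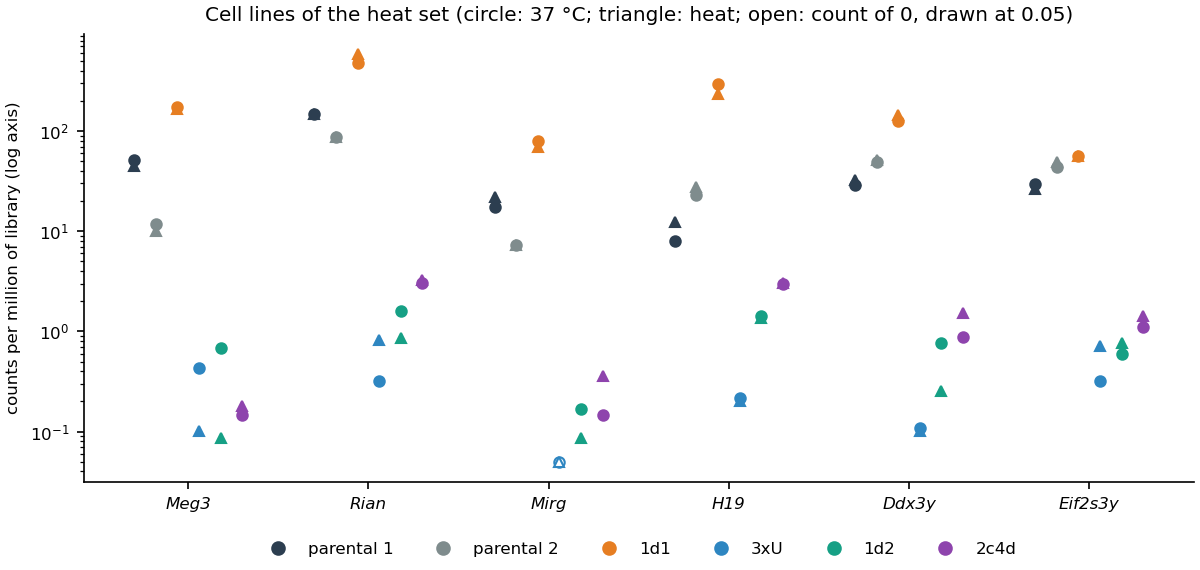
Panels plot Meg3, Rian, Mirg, H19, Ddx3y and Eif2s3y in the 6 lines of the heat set as CPM of all counts on a log axis, with circles for 37 °C and triangles for heat. All 6 genes are highest in 1d1 and near 0 or lowest in 3xU, 1d2 and 2c4d.

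The knockout group therefore had no shared direction at this locus. Of 5 members that passed the filter (Rtl1 did not), none was called between knockout and parental lines at 37 °C (adjusted p 0.842 to 0.983 by edgeR, 0.902% of genes called) or after heat (0.781 to 0.969, 0.640%). At an unadjusted p under 0.05 the count was 0 in both tests, as it was by DESeq2, which gave an adjusted p to 2 members and 1 member. Without line 1d1, a choice made after seeing the data, Meg3, Rian and Mirg were all called lower in the knockout lines at 37 °C, by -6.25, -6.08 and -6.64 (adjusted p 0.00925, 0.00345 and 0.00762 by edgeR). After heat the same values were -7.68, -6.20 and -6.49 (adjusted p 0.00811, 0.00432 and 0.00811 by edgeR). Line 1d1 and the other knockout lines share the labelled genotype, and Mettl3 lay at 29.7 to 44.6 CPM in 1d1 and at 20.5 to 36.8 CPM in the other 3.

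The difference among the 4 knockout lines was itself tested, with the 37 °C and heat libraries of a line as its replicates. Meg3 (adjusted p 2.11e-08), Rian (4.62e-09), Mirg (4.99e-08) and Dlk1 (0.00185) passed by edgeR and Dio3 did not (0.183), while 59.9% of all genes passed. Dlk1 was 3.06 and 3.69 CPM in 1d1 and at most 1.05 CPM in the other knockout libraries. The libraries of a line are not independent clones, so this test speaks of these 4 lines.

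Contrasts against the parental cultures were added after seeing the data and pooled both temperatures. The 37 °C and heat libraries of a line or culture served as its replicates, so these tests speak of these lines only. Line 1d1 was higher for 4 of 5 members (31.7% of genes called): Meg3 by 2.48 ± 0.49, Mirg by 2.39 ± 0.34, Rian by 2.07 ± 0.22 and Dlk1 by 2.08 ± 0.42. Line 3xU was lower for 3 of 5 (31.0%), line 1d2 for 3 of 5 (22.3%) and line 2c4d for 3 of 5 (30.3%), in each case Meg3, Rian and Mirg. By pooled counts the parental cultures held 108.7 times (46.45 to 335.3), 74.15 times (38.93 to 162.5) and 175.5 times (68.39 to 645.2) as much Meg3 as 3xU, 1d2 and 2c4d. Rian was 200.5, 93.37 and 37.0 times as high in the parental cultures, and Mirg, with 0 counts in 3xU, was at least 80.65-fold lower there. The parental cultures also differed from each other for 3 of 4 tested members (21.1% of genes called), with Meg3 lower in culture 2 by -2.06 ± 0.14, Mirg by -1.35 ± 0.18 and Rian by -0.67 ± 0.10. The snoRNA gene AF357425 followed the long RNAs, at 1.95 in 1d1, -7.16 in 3xU, -7.15 in 1d2 and -7.12 in 2c4d against parental.

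Some other genes were also highest in 1d1 and lowest in 3xU, 1d2 and 2c4d, but their order between the parental cultures was the reverse. H19, an imprinted noncoding RNA of chromosome 7, lay at 8.07 to 27.7 CPM of all counts in the parental libraries, at 234 to 293 CPM in 1d1, and at 0.203 to 0.215, 1.37 to 1.44 and 2.95 to 3.05 CPM in 3xU, 1d2 and 2c4d. The Y-linked gene Ddx3y lay at 28.7 to 51.2 CPM in the parental libraries, at 125 to 145 CPM in 1d1 and at most 1.53 CPM in the other 3 lines. Eif2s3y, also Y-linked, lay at 26.7 to 49.1, 56.0 to 56.3 and at most 1.44 CPM. At 37 °C parental cultures 1 and 2 held 8.07 and 22.8 CPM of H19 and 28.7 and 49.2 CPM of Ddx3y. For Eif2s3y they held 29.7 and 43.7 CPM. Meg3, Rian and Mirg were instead lower in culture 2. Ddx3y was near 0 in both floxed lines too (at most 0.377 CPM), including the Drosha line where Meg3 was high. Of 38 tested imprinted genes outside the locus, 11 were higher and 5 lower in 1d1, 6 and 11 in 3xU, 7 and 11 in 1d2, and 8 and 10 in 2c4d. Of all genes, 31.7%, 31.0%, 22.3% and 30.3% were called in these contrasts. Igf2, the neighbour of H19, was higher than in parental cells in all 4 lines (1.80, 1.40, 1.60 and 4.21). Primitive endoderm markers summed to 66.05 to 94.33 CPM in parental and 14.06 to 23.27 CPM in knockout libraries, 1d1 included, and their part in the locus values was not tested.

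Heat left the 5 tested members without a call. None passed in the parental cultures (0.0192% of genes called), in the knockout lines (0.185%) or for the difference of the 2 responses (0%), with adjusted p between 0.9998 and 1.00 by edgeR. At an unadjusted p under 0.05 the count was 0 in all 3 tests, as it was by DESeq2, which gave an adjusted p to 2, 0 and 2 members. Since the cell line pairs the 37 °C and heat libraries, the fit with cell line as a block is given too: it called 119, 1058 and 2 genes in these tests, against 3, 29 and 0 without it, and no member (lowest adjusted p 0.148, for Dio3 in the knockout lines). Dio3 had the only like-signed differences of some size, from 0.456 and 0.903 CPM to 0.952 and 1.85 CPM in the parental cultures, and its values were higher after heat in all 6 lines. These values rest on few reads: 6 and 11 counts at 37 °C and 7 and 19 after heat in the parental cultures. In the knockout lines the counts were 4 to 8 at 37 °C and 6 to 17 after heat. Blocked, Dio3 differed by 1.03 in the parental cultures (adjusted p 0.335 by edgeR) and by 0.88 in the knockout lines. Rian in 1d1 was 433 CPM at 37 °C and 583 CPM after heat, and in parental culture 1 150 and 143 CPM.

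The genes most like Meg3, Rian and Mirg were sought among all genes whose log2 CPM averaged 2 or more, as a description, since the points fall into cell lines and share them. Across the 23 floxed libraries (11099 genes) the leading gene outside the locus was Zyx for Meg3 (Pearson r 0.983), Rpl3 for Rian (0.989) and Slc25a24 for Mirg (0.990). The members correlated with each other at 0.985 (Meg3 and Rian), 0.988 (Meg3 and Mirg) and 0.977 (Rian and Mirg). Across the 12 heat libraries (11120 genes) the leading genes were Fcho1 for Meg3 (0.973) and Mirg (0.979) and Ddx3y for Rian (0.989). No gene led in both sets.

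ChIP read density over the locus was counted in 5 kb windows and summed over the windows of each gene, and the sums of Meg3, Rtl1 and Rian share windows where the genes overlap. For METTL3 in clones 1 and 2, Dlk1 (-1.32 ± 0.11, adjusted p 5.06e-09 by edgeR) and Dio3 (-1.48 ± 0.12, adjusted p 3.60e-09 by edgeR) were lower in precipitate than input, with 48.0% of all genes called. Rian (0.34 ± 0.14, 0.0554), Meg3 (-0.28, 0.341), Rtl1 (0.27) and Mirg (-0.18) did not pass. With the clone as a block, which pairs each precipitate with its own input, Rian (0.31, 0.0310) and Meg3 (-0.41, 0.0319) passed. In the heat set at 37 °C, with 29.6% of genes called, Dlk1 (-1.36 ± 0.23, adjusted p 0.0223 by edgeR) and Dio3 (-1.14 ± 0.27, 0.0281) were lower again. Dio3 lost its call without either precipitate (0.0979 and 0.117) and Dlk1 without that of H4 (0.0656). The blocked fit there called 15465 genes against 8857, among them Meg3 (-0.64, 0.0158) and Mirg (-0.58, 0.0324).

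Window by window, 66 of the 167 locus windows were called in clones 1 and 2 (8 higher and 58 lower than input, 16.7% of all windows called) and 101 in the heat set (10 higher and 91 lower, 32.5%). From the Meg3 start to the Mirg end 14 of 43 windows were called in clones 1 and 2, 6 of them higher, and beyond Mirg toward Dio3 46 of 106 were called, 2 of them higher. Inputs were thin from Rian to just before Mirg, with median counts of 12 to 55 per window in the METTL3 inputs against 40 to 242 in the other windows of the locus.

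METTL3 density differed between clones over the 4 members in the middle of the locus. Against clone 1, a contrast added after seeing the data, clone 2 precipitates were higher by 1.33 ± 0.11 over Rtl1, 1.11 ± 0.12 over Meg3, 0.71 ± 0.14 over Mirg and 0.51 ± 0.11 over Rian (adjusted p 3.25e-10, 4.30e-07, 0.00631 and 0.0213 by edgeR), with 0.596% of genes called. Dlk1 (0.01) and Dio3 (-0.08), at the ends of the locus, did not pass. Of 481756 windows tested 9 were called (0.00187%), and 4 of the 9 lay in this locus. The 4 were the only called windows in it, all higher in clone 2 and all between the Meg3 start and the Mirg end.

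The window with the smallest adjusted p of the genome in that contrast, chr12:109575001-109580000 within the Rtl1 span, held 2.72 and 2.43 CPM in the clone 1 precipitates, 24.7 and 14.9 CPM in those of clone 2, and 2.36 and 2.62 CPM in the inputs (2.95 ± 0.31, adjusted p 5.13e-16 by edgeR). The window chr12:109710001-109715000, with 8 microRNA hairpins of the Mirg cluster, held 1.60 and 2.51 CPM against 9.84 and 5.69 CPM (1.94 ± 0.24, adjusted p 4.05e-10 by edgeR). The third, chr12:109570001-109575000, holds Mir673 (1.64, adjusted p 8.10e-07 by edgeR), and the fourth, chr12:109545001-109550000, lies within Meg3 (1.43, adjusted p 0.000112 by edgeR). In all 4 windows the clone 2 precipitates lay above those of clone 1, and the inputs of the clones differed little (8.38 and 8.53 CPM in the fourth).

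The precipitates of the pair H4 and H5 showed a like pattern in separate libraries, but their inputs differed over part of the stretch. From Rian to just before Mirg the median input per window was 0.36 CPM in H4 and 0.886 CPM in H5, against 0.879 and 0.875 CPM in clones 1 and 2. In the other windows of the locus it was 3.21 and 3.9 CPM in H4 and H5. The contrast does not use inputs, and the part of this input difference in the values below was not tested. H5 was higher than H4 by 1.36 ± 0.11 over Rtl1, 1.33 ± 0.12 over Meg3, 0.83 ± 0.15 over Mirg and 0.64 ± 0.10 over Rian, with 16.6% of genes called, and by 0.20 over Dlk1 and 0.19 over Dio3. Between the Meg3 start and the Mirg end 21 of 43 windows were called, all higher in H5, against 26 of 167 in the whole locus and 2.67% of all windows. The window chr12:109575001-109580000 again led the locus, at 1.41 and 1.95 CPM in H4 (37 °C and heat) and 19.8 and 9.43 CPM in H5 (3.03 ± 0.30, adjusted p 4.30e-19 by edgeR). Its inputs were 3.16 and 5.12 CPM. Of 41 imprinted genes elsewhere, 0 were called between the clones (1 at an unadjusted p under 0.05) and 10 (8 higher and 2 lower) between H5 and H4. No RNA library is labelled as a METTL3-tagged clone, so the level of Meg3 RNA in these cells was not measured here.

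**Figure D5:**
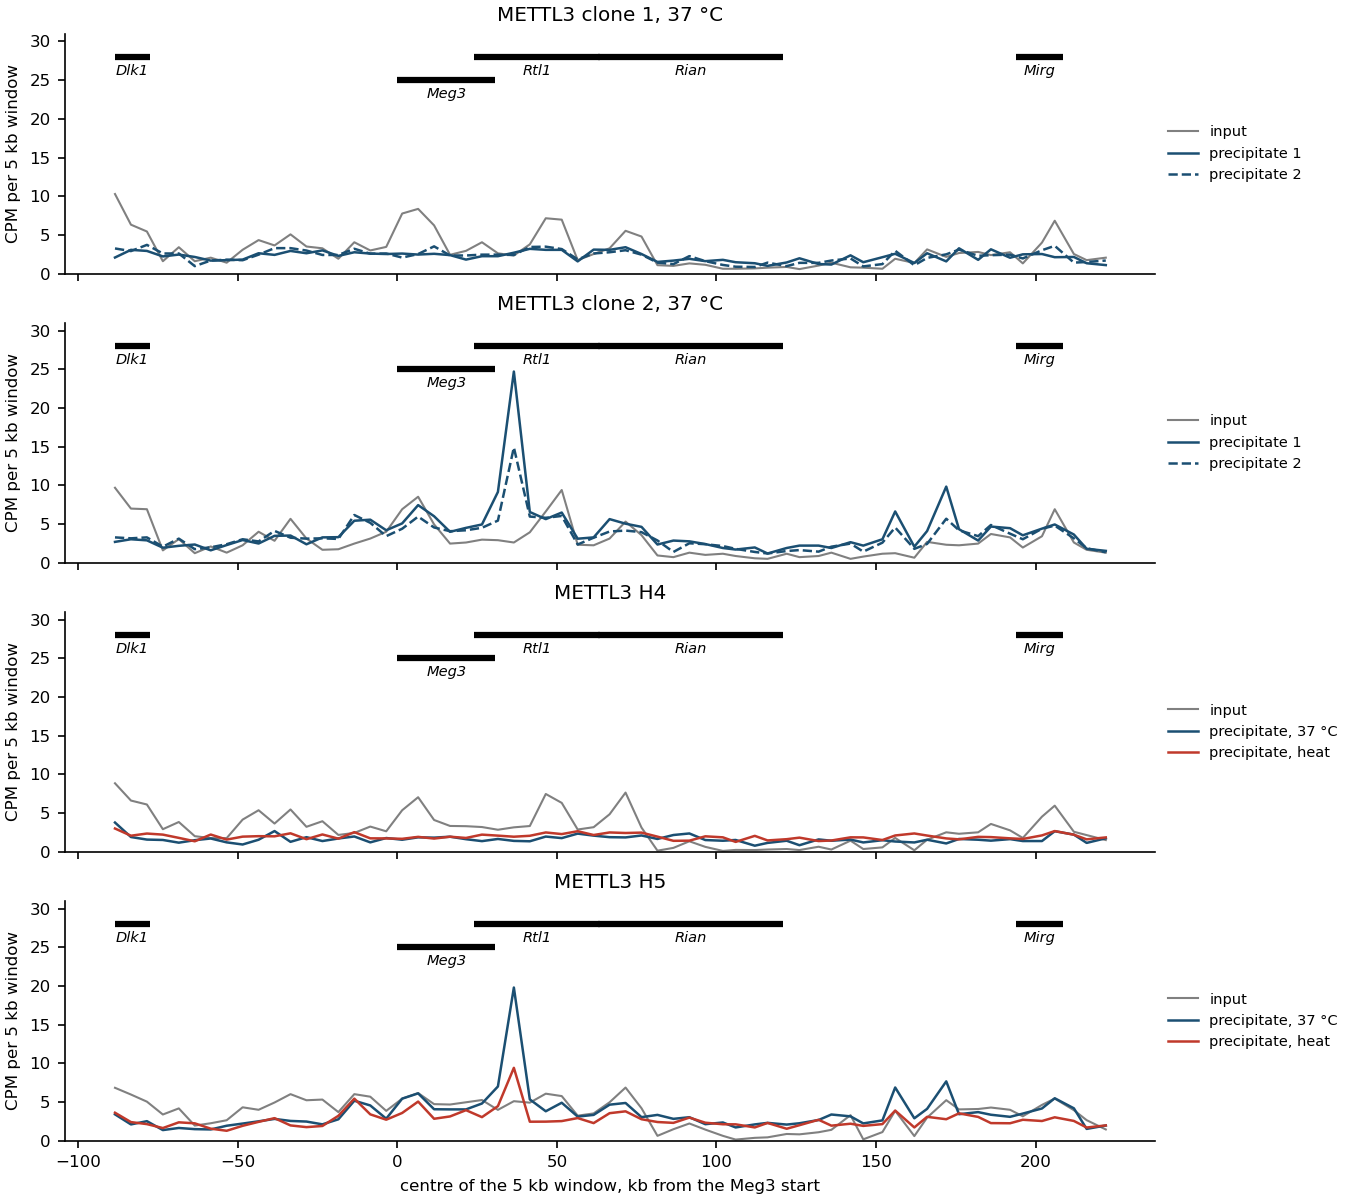
Panels plot METTL3 precipitate and input CPM per 5 kb window against distance from the Meg3 start in kb, for clones 1 and 2 and for cultures H4 and H5. Precipitates of clone 2 and H5 are higher than those of clone 1 and H4 over the stretch from Meg3 to Mirg. The difference is largest at the window 36.5 kb from the Meg3 start (24.7 and 14.9 CPM in clone 2), while clone 1 and H4 show no peak there.

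Heat left METTL3 density at the locus without a call. None of 6 members (adjusted p 0.429 to 0.993 by edgeR, 0.0599% of genes called) and none of 167 windows (0% of all windows called) passed. At an unadjusted p under 0.05 the counts were 0 members and 6 windows, none of the windows between the Meg3 start and the Mirg end, and DESeq2 called 0 members. With culture as a block, which pairs the temperatures, 7370 genes were called against 18, and again no member (lowest adjusted p 0.166, for Dio3). In H5 the leading window held 19.8 CPM at 37 °C and 9.43 CPM after heat, in 1 library each, and its log2 difference over both cultures was -0.98 (adjusted p 0.861 by edgeR).

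DGCR8 ChIP was tested over 3 sets with 1 precipitate and 1 input each. Dlk1 (-0.95 ± 0.22, adjusted p 0.0296 by edgeR) and Dio3 (-1.15 ± 0.23, 0.0294) were below input, with 24.9% of genes called, and Meg3 (-0.52, 0.0760), Rtl1 (-0.50), Mirg (-0.13) and Rian (0.18) did not pass. Both calls were lost without the term for set (0.0828 and 0.0821). Of the 167 windows 82 were called, 5 higher and 77 lower (22.6% of all windows called), and the 5 higher ones lay between the Meg3 start and the Mirg end. At a threshold of 0.01 the count was 0, so no window passed a stricter limit.

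For conditions with 1 library there is no replicate check, and windows past 2-fold are counted without a test. DGCR8 with formaldehyde (its column is headed DGCR8 with no crosslinker, and was matched as the only DGCR8 precipitate of the set without DSG) had 5 of 165 locus windows past 2-fold above input and 0 below (11.0% of all windows past 2-fold), DGCR8 with the further crosslinker DSG had 4 above and 23 below of 166 (22.1%), Drosha had 3 above and 63 below of 152 (30.2%) and Dicer had 0 of 162 (0.890%). The Drosha and Dicer ratios are over the input of the parental BirA line, not of the tagged lines. Over genes, Drosha was lowest against that input at Mirg (-1.57, exact 95% interval -1.95 to -1.24), then Dio3 (-1.24) and Rtl1 (-1.08). Dicer lay within -0.42 and 0.01 (log2) of the same input at all 6 members. DGCR8 after heat had 30 windows above and 2 below its 37 °C library of 167 (21.7%), with Dio3 higher by 0.87 (0.57 to 1.2), from libraries of very different depth (79339708 and 20405596 counts). DGCR8 in the Mettl3 knockout had 3 above and 1 below wild type of 163 (1.79%), and its 6 gene ratios lay between -0.22 for Mirg and 0.43 for Dio3.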

How the data were processed

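Read counts per gene (35 RNA libraries) and per 5 kb window (24 ChIP libraries) were used as deposited by the authors. Alignment used Bowtie and mm10 per the submitters' processing notes; their versions and the strand used in counting are not given in the sources used here. RNA was ribosomal RNA-depleted and made into libraries with a ScriptSeq kit, per the labels' protocols. One DGCR8 ChIP column was matched to its sample as the only one left.

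Counts were tested with edgeR 4.0.16 (R 4.3.3; TMM, filterByExpr, quasi-likelihood F test, Benjamini-Hochberg over all genes, threshold 0.05). ChIP gene sums and windows needed a mean of 10 counts, and single-library ratios a sum of 50 counts and a pseudocount of 1. Alternatives were DESeq2 1.42.0, other scaling and filters, blocks and leaving out libraries. The fits were checked on simulated counts. Libraries of 1 line at 37 °C and after heat deviated together from their group means (r 0.646 to 0.850 over 6 lines), so cell line was the block there; in METTL3 ChIP the clone or culture pairs libraries by label.

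All 6 members, genes of the locus, up to 3 genes per list by adjusted p, the target genes and the most alike genes are named; H19 values and Y-linked genes were chosen after their values were seen. Members and lists were chosen with earlier results of these data known. RPKM used the exon lengths given with the deposited RNA counts.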

Additional observations from a re-analysis of the deposited data

Results flagged for a closer look

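Knockout line 1d1 stood apart from the other 3 knockout lines, by the gap between it and the nearest of them as a share of the group's range (above the 95% critical value of Dixon's test). At 37 °C this held for Meg3 (159 CPM), Rian (433 CPM), Mirg (72.5 CPM) and Rtl1 (1.16 CPM), and after heat for Meg3 (166 CPM), Rian (583 CPM), Mirg (69.0 CPM) and Dlk1 (3.69 CPM). Chance marks about 1 in 20 groups in this way, and the values of 1 line at the 2 temperatures are not independent. The report gives the values of H19 and of Y-linked genes that moved with the same line, and what sets 1d1 apart was not tested.

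In the Drosha line the 4OHT effect differed between 96 h and 24 h by a tested contrast, by -2.18 (log2) for Meg3 and by -1.02 for Mirg. The 96 h treated group holds 1 library and its control replicate 2 had the highest Meg3 level of the controls. The call for Meg3 held in every alternative run, and that for Mirg was lost without any 1 of the 24 h libraries.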

How the results depend on the processing

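Of the recomputed values of members, 987 kept their direction and their side of the threshold, 28 passed where they had not, 23 no longer passed and 111 changed sign. No difference that passed as reported changed sign. Without line 1d1, 5 that had not passed changed sign and passed (Meg3 and Mirg at 37 °C, and Meg3, Mirg and Rian after heat, between knockout and parental lines). In the Drosha line, Mirg at 24, 48 and 96 h kept its call under every alternative. The cause of each change below was not tested, except that fewer libraries entered the fits limited to the compared groups or leaving one out.

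Counts of called genes moved most. With DESeq2 they were 29, 338 and 104 in the DGCR8 line (24 h, 48 h and 96 h minus 24 h), 8 and 106 for the difference between the floxed lines (48 and 96 h), 31, 115 and 8 for heat (parental, knockout and their difference), 779 and 753 for knockout against parental (37 °C and after heat), and 1586 for heat in METTL3 ChIP. Without the filter on low counts they were 56, 458 and 269 in the DGCR8 line, 355 and 933 in the Drosha line (24 and 48 h), 12, 58 and 427 between the floxed lines, 22, 46 and 24 for heat, and 383 and 380 for knockout against parental. With the compared groups only they were 0 and 0 in the DGCR8 line (96 h and 96 h minus 24 h), 748 and 136 in the Drosha line (24 and 48 h), 0 between the lines at 96 h, 13 for heat in the knockout lines, and 4 and 1 for knockout against parental.

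The replicate numbers of the floxed lines are not stated to pair libraries, and same-numbered libraries deviated together only in part (median r 0.205 over 15 pairs of groups in the DGCR8 line and -0.0147 over 10 in the Drosha line). With the number as a block, 15 genes were called for 96 h minus 24 h in the DGCR8 line, and Dio3 in the Drosha line at 96 h was -0.11. That block also moved Meg3 (-0.84) and Rtl1 (2.02) at 96 h across the threshold. With cell line as a block, heat called 119, 1058 and 2 genes, Rian in parental cells was 0.00 and Meg3 in the knockout lines -0.10. With clone or culture as a block, METTL3 ChIP called 15465 genes against input at 37 °C and 7370 for heat, with Rian at 0.04. Without the term for set, 45 genes were called for DGCR8 against input.

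Scaled by library totals, METTL3 heat called 63 genes with Rian at 0.04, and Rtl1 against input in the heat set was 0.02. At a threshold of 0.01 the locus windows called were 67 for METTL3 in the heat set and 0 for DGCR8. Single-library locus windows past 2-fold became 1 for DGCR8 with formaldehyde and 1 for the Mettl3 knockout at a minimum of 100 counts, 69 for DGCR8 with DSG under TMM scaling, and 2 for the knockout with a pseudocount of 5.

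Without line 1d1, a choice made after seeing the data, heat in the knockout lines called 14 genes, with Meg3 at -1.68, Mirg at 0.35 and Rian at -0.12. Knockout against parental called 444 genes at 37 °C (Meg3 -6.25, Mirg -6.64) and 391 after heat (Meg3 -7.68, Mirg -6.49, Rian -6.20). The difference of heat responses was -1.43 for Meg3, 0.15 for Mirg and -0.12 for Rian.

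Leaving out 1 library in turn, the counts of called genes ranged from 1 to 4, 15 to 27, 401 to 2953 and 0 to 512 in the DGCR8 line (24, 48 and 96 h, and 96 h minus 24 h). They ranged from 9 to 47, 47 to 987 and 642 to 2364 in the Drosha line (24 h, 48 h and 96 h minus 24 h), and from 1 to 1876 between the lines at 96 h. They ranged from 14 to 23 for heat in the knockout lines, 0 to 99 and 0 to 55 for knockout against parental at 37 °C and after heat, 1527 to 14795 for METTL3 against input in the heat set, 0 to 9 for METTL3 heat and 927 to 11374 for DGCR8 against input.

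Members that changed sign on leaving out 1 library are given as ranges of log2 differences. In the floxed lines, Rian in the DGCR8 line ranged from -1.15 to 0.37 at 24 h, -3.53 to 0.05 at 96 h and -3.32 to 0.25 for their difference. In the Drosha line at 96 h Dlk1 ranged from -0.57 to 0.07, Dio3 from -0.18 to 0.28 and Rian from -0.04 to 0.15, and for 96 h minus 24 h Dlk1 ranged from -0.28 to 0.36 and Rtl1 from -2.23 to 0.14. Between the lines Dio3 ranged from -2.24 to 4.61 and Rian from -1.41 to 0.13 at 24 h, Dio3 from -0.67 to 0.28 and Rtl1 from -1.99 to 2.74 at 48 h, and Rtl1 from -1.93 to 3.43 and Mirg from -0.09 to 3.44 at 96 h.

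For heat in parental cells Meg3 ranged from -1.55 to 1.08, Dlk1 from -0.22 to 0.14, Mirg from -0.68 to 0.89 and Rian from -0.33 to 0.36. For heat in the knockout lines the ranges were -8.25 to 6.59, -1.28 to 1.06, -6.81 to 7.06 and -6.08 to 6.35 in the same order. For knockout against parental at 37 °C they were -6.24 to 1.67, -0.38 to 0.98, -6.64 to 1.22 and -6.08 to 0.26, with Dio3 at -0.64 to 0.34. After heat they were -7.67 to 1.90, -0.68 to 0.99, -6.48 to 1.11 and -6.21 to 0.70, with Dio3 at -0.75 to 0.19. For the difference of heat responses they were -7.98 to 6.84, -1.27 to 1.07, -6.99 to 6.87 and -6.06 to 6.35, with Dio3 at -0.71 to 0.42.

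In METTL3 ChIP, Rtl1 against input ranged from -0.06 to 0.47 in clones 1 and 2. In the heat set Meg3 ranged from -1.44 to 0.18, Rtl1 from -1.33 to 0.56, Mirg from -1.18 to 0.05 and Rian from -0.20 to 0.62 against input. For METTL3 heat Meg3 ranged from -0.81 to 0.87, Dlk1 from -0.01 to 0.24, Rtl1 from -1.04 to 0.91, Mirg from -0.76 to 0.54 and Rian from -0.37 to 0.52. Mirg in DGCR8 ChIP ranged from -0.33 to 0.16. A group reduced to 1 library is taken to vary like the others.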
